A study of Mus musculus with 4 samples.

Results

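The genes described here are the nuclear-encoded genes of oxidative phosphorylation, 84 of the 15632 genes listed in count tables of nuclei from the mouse deep cerebellar nuclei. The rule of choice uses symbols and no measured difference, though it was set with earlier results of these data known. The symbols begin with Nduf, Uqcr or Atp5, run from Cox4 to Cox8, or are Sdha, Sdhb, Sdhc, Sdhd and Cycs. Of 88 such rows, 84 had a count in each of the 4 libraries, and Ndufs5, Ndufb4, Atp5k and a row named Atp5o.1 did not. By role, 7 of the 84 encode core subunits of complex I, 26 its accessory subunits and 8 its assembly factors. A further 4 encode complex II, 8 complex III and 14 complex IV, with Ndufa4 and Ndufa4l2 counted there, and 14 encode subunits of the ATP synthase. The last 3 are Cycs (cytochrome c), Cox7a2l (a factor of respiratory supercomplexes) and Atp5s (a factor of the ATP synthase). Cox4i1, Cox6a2, Cox7a1 and Cox8b were not analysed here.

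Oxidative phosphorylation takes electrons from NADH and succinate through complexes I to IV of the inner mitochondrial membrane, pumps protons across it, and lets the ATP synthase use the gradient. A few hydrophobic subunits are encoded by mitochondrial DNA, and all others by nuclear genes. Several complex IV subunits exist as paralogs that replace one another in particular tissues. In the brain the pathway is known as the main source of ATP for neuronal signalling, while astrocytes and mature oligodendrocytes are known to draw more on glycolysis.

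Nuclei came from unsorted tissue micro-dissected from C57BL/6J mice and were sequenced on the 10x Genomics platform, in a study whose title links glutamatergic neurons of this region to satiation. One line, Ucn3-Cre (Tg[Ucn3-cre]KF31Gsat/Mmucd), gave replicate 1, a female of 3 months whose nuclei were purified on an iodixanol gradient, and replicate 2, a male of 3 months. The other, vGluT2-Cre (Tg(Slc17a6-icre)1Oki), gave replicate 1, a male of 2 months, and replicate 2, a female of 2.5 months. The 3 libraries other than Ucn3-Cre replicate 1 were purified on a sucrose cushion. All 4 libraries carry the Ai32 reporter (CAG-COP4*H134R/EYFP at Gt(ROSA)26Sor), which makes channelrhodopsin fused to EYFP where Cre is active. Cre in the first line follows Ucn3 and in the second Slc17a6, and no nuclei were selected by the reporter. The labels do not say how many animals made up a library. Line and age cannot be told apart, and extraction differs in 1 library only. Nucleus names of both replicate 2 libraries carry the same tag, and those of the replicate 1 libraries carry 2 other tags; what the tag marks is not given in the sources used here.

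The tables hold 21494 nuclei, with 9096357 to 19125488 counts and a median of 1730 to 3206 counts per nucleus in a library. Removal of 947 likely doublets left 20547 nuclei. A set of 41 barcodes occurred in more than 1 library (82 nuclei). Nuclei were clustered without the 84 genes and named from marker genes, so each class name below stands for nuclei like that type. They comprised 11177 oligodendrocyte, 5027 astrocyte, 763 microglial, 737 endothelial, 693 oligodendrocyte precursor and 184 mural nuclei. Neurons comprised 1010 inhibitory nuclear or Golgi nuclei, 401 glutamatergic nuclear nuclei and 244 molecular layer interneurons. Another 232 neuronal nuclei with mixed markers and 79 fibroblasts entered no comparison. Depth per nucleus differed between classes. The 401 glutamatergic nuclei held 4513033 counts in sum, the 1010 inhibitory nuclei 5538113 and the 11177 oligodendrocyte nuclei 25005180. Leading genes were Mbp and St18 in oligodendrocytes, Gpc5 and Trpm3 in astrocytes, Tnr and Vcan in precursors, Inpp5d in microglia, Flt1 and Cldn5 in endothelial cells, and Vtn and Pdgfrb in mural cells. All per-library values below are in the order Ucn3-Cre replicate 1, vGluT2-Cre replicate 1, Ucn3-Cre replicate 2 and vGluT2-Cre replicate 2.

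Endothelial nuclei spent the largest share of their counts on these genes among the 9 classes present in every library. Oligodendrocyte precursors, glutamatergic neurons and oligodendrocytes spent the smallest, in an order that changed with depth. To put all nuclei at equal depth, each was thinned to 1000 counts. The 84 genes then took 1.24, 1.41, 1.09 and 1.25% of the counts of endothelial nuclei (1.25 ± 0.129, SD, n = 4). They took 0.757, 0.833, 0.899 and 0.759% in mural nuclei (0.812 ± 0.0678). Every endothelial library lay above every mural library. Finer clustering set 284 of the 737 endothelial nuclei apart in a cluster that the marker rule left unnamed, described below. Without it the share fell to 0.962 ± 0.0577% (0.977, 1.04, 0.929 and 0.907%), in thinned nuclei still above each mural library. With all counts this reduced share was 0.830% in Ucn3-Cre replicate 2, below the 0.843% of the finer mural cluster in that library. The 2 lowest mural libraries lay below the molecular layer interneurons of Ucn3-Cre replicate 2 (0.789%). The remaining 7 classes overlapped from one to the next. Molecular layer interneurons stood at 0.674 ± 0.0863%, astrocytes at 0.640 ± 0.0675%, microglia at 0.612 ± 0.0818% and inhibitory neurons at 0.566 ± 0.0596%. Oligodendrocytes stood at 0.532 ± 0.0851%, glutamatergic neurons at 0.528 ± 0.0608% and precursors at 0.506 ± 0.0608%. Means of neighbours in this order differed by less than the SD between libraries. That SD includes shifts shared by the classes of a library, and neighbours were not compared within libraries. The sums include Atp5o, a row that may count other genes (below). Without it astrocytes stood at 0.596%, below microglia at 0.609%, and the order of the other classes was as before. With Atp5o included, the order at the low end changed with depth. With all counts precursors stood at 0.450%, oligodendrocytes at 0.454% and glutamatergic neurons at 0.475%. At 2000 counts oligodendrocytes stood at 0.477%, precursors at 0.502% and glutamatergic neurons at 0.525%. No test is given for the summed share, because the genes were chosen with earlier results of these data known.

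**Figure D1:**
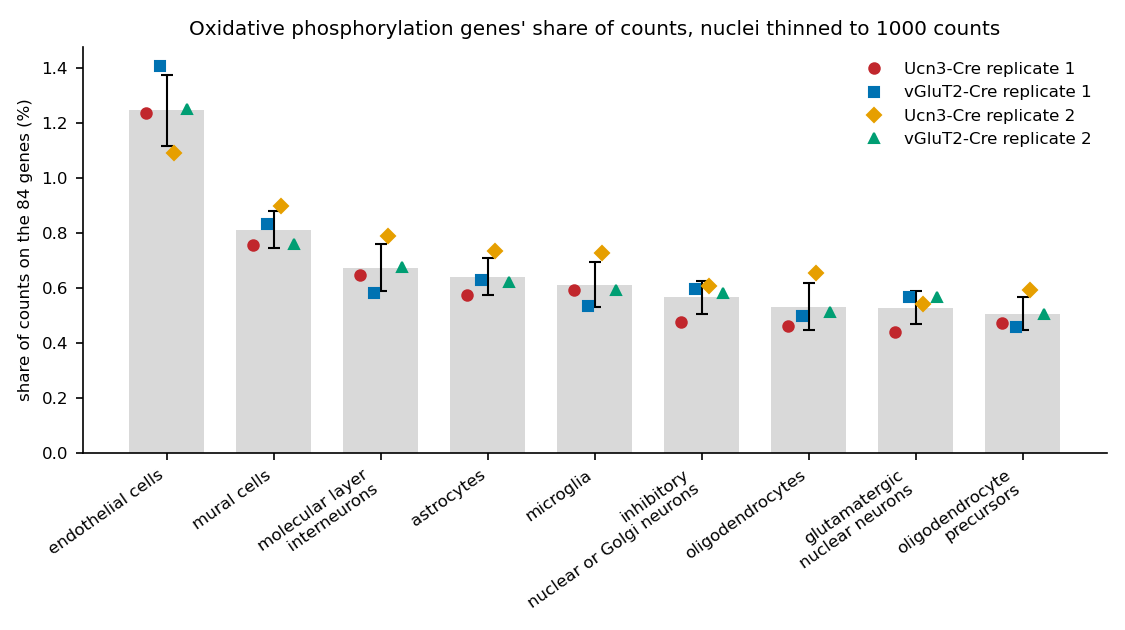
Share of counts (%, y axis) that fell on the 84 genes in each class of nuclei (x axis), with every nucleus thinned to 1000 counts; bars are means of 4 libraries, error bars the SD, points the libraries. Endothelial libraries sit between 1.09 and 1.41%, above all others (0.907 to 1.04% without the cluster left unnamed, not drawn), and the neuronal and glial classes overlap between 0.439 and 0.789%.

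The libraries were not level. Ucn3-Cre replicate 1, the iodixanol library and the shallowest, had the lowest share in 5 of the 9 classes, and Ucn3-Cre replicate 2 the highest in 7 of 9. Over all nuclei the shares were 0.534, 0.552, 0.693 and 0.586%. Whether extraction, depth or animal set this order was not tested, and class comparisons below were made within libraries by a library term.

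The endothelial class was above glutamatergic neurons in structural subunits and not in assembly factors. Complex IV subunits took 0.305 ± 0.0247% of endothelial counts against 0.0973 ± 0.0275% in glutamatergic neurons. Complex III subunits took 0.148 ± 0.0256% against 0.0423 ± 0.0146%, and ATP synthase subunits 0.319 ± 0.0400% against 0.133 ± 0.0241%. The libraries of these 2 classes did not overlap in any of the 3 roles. Complex I assembly factors, which help to build the complex and are not part of it, took 0.0467 ± 0.00540% in glutamatergic neurons and 0.0305 ± 0.00270% in endothelial cells, and the order was reversed. Gene by gene, 58 of the 84 had their highest mean level in endothelial cells, 7 in mural cells, 7 in molecular layer interneurons and 6 in glutamatergic neurons. Those last 6 were Cox5a, Ndufa10, Ndufaf2, Ndufaf5, Ndufaf7 and Uqcrc1. Glutamatergic neurons held the lowest level for 30 genes and precursors for 16. The map of levels by class shows the endothelial column above the gene mean for most rows and the assembly factors Ndufaf4, Ndufaf5 and Ndufaf7 above it in neurons.

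**Figure D2:**
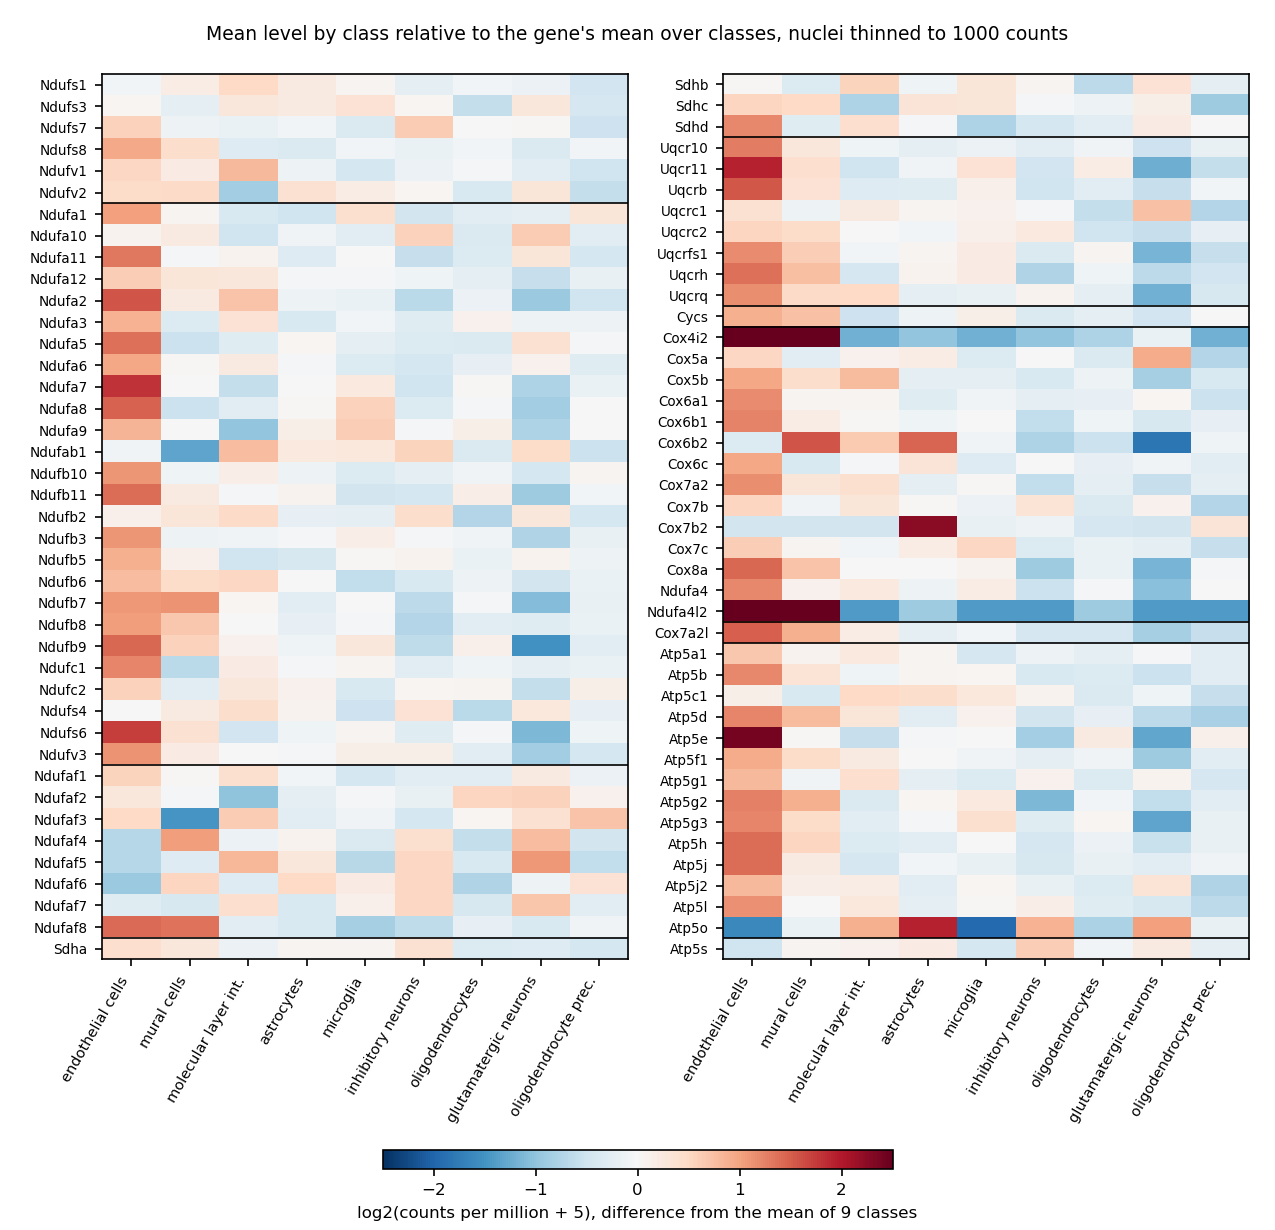
Mean level of 83 of the 84 genes (rows, grouped by role) in each of 9 classes (columns), nuclei thinned to 1000 counts, as log2(CPM + 5) minus the gene's mean over the classes. Red is above and blue below that mean; most rows are highest in the endothelial column, and the glutamatergic column is the lowest more often than any other.

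Transcripts of mitochondrial DNA and ribosomal protein genes were also high in endothelial nuclei, but did not follow the order of the 84 genes throughout. Oligodendrocytes had more transcripts of mitochondrial DNA than inhibitory neurons, with a lower mean share on the 84 genes (0.532 against 0.566%). Transcripts of mitochondrial DNA took 1.93% of thinned counts in endothelial nuclei, 0.591% in mural nuclei, 0.434% in microglia, 0.348% in oligodendrocytes, 0.0518% in inhibitory and 0.0210% in glutamatergic neurons. Cytosolic ribosomal protein genes took 1.45% in endothelial nuclei and 0.230% in glutamatergic neurons. Such transcripts are largely cytoplasmic. Malat1, a nuclear RNA, took 3.39% in endothelial nuclei, 7.57% in glutamatergic neurons and 12.5% in mural nuclei. It was not lowest in endothelial nuclei. In thinned nuclei it stood at 19487 CPM in microglia and 27803 in molecular layer interneurons, against 33944 in endothelial nuclei. The part of cytoplasmic RNA in the values of the 84 genes was not tested.

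Between neurons and glia, members of the pathway lay on both sides. With counts summed per library and class, edgeR's quasi-likelihood test called 53 of the 84 genes between neurons (glutamatergic and inhibitory) and glia (astrocytes, oligodendrocytes and precursors) at an adjusted p under 0.05. Of these 20 were higher and 33 lower in neurons. Among all 11993 genes tested 70.7% were called, 35.2% higher and 35.5% lower, so that calls were no more frequent among the 84 genes than over all genes. The median log2 difference was -0.17 over the 84 genes and -0.027 over all genes. Scaled by library totals the split became 27 higher and 28 lower, and the all-gene median shifted to 0.092. Of the 53, 48 had the same direction in all 4 libraries. Classes were drawn from the same counts, so that p-values across classes are too small, although the 84 genes took no part in the clustering.

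By role, assembly factors of complex I leaned to neurons (5 higher, 0 lower of 8, median 0.34) and complex IV to glia (2 higher, 8 lower of 14, median -0.52). Accessory subunits of complex I were higher in 4 and lower in 13 of 26. Of the 7 core subunits 1 was higher and none lower. Complex III gave 2 higher and 3 lower of 8, complex II 1 and 1 of 4, and the ATP synthase 4 and 6 of 14.

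The neuronal side was led by Ndufaf7, an assembly factor of complex I. Its level was 87.6, 102, 144 and 132 CPM (counts per 1000000 counts of the class in that library) in glutamatergic neurons and 112, 105, 117 and 113 in inhibitory neurons. Astrocytes gave 41.7, 44.9, 52.4 and 45.1 CPM and oligodendrocytes 38.5, 47.3, 53.3 and 47.0. No neuronal library overlapped with a library of these 2 glial classes, and the log2 difference was 1.06 (SE 0.089, edgeR adjusted p = 8.77e-16). Ndufaf5 (log2 1.04, SE 0.139) and Ndufaf4 (0.85, SE 0.095), both assembly factors, followed the same direction. Ndufa10, an accessory subunit, stood at 114, 112, 161 and 142 CPM in glutamatergic neurons and at 42.4, 42.9, 62.5 and 61.5 in oligodendrocytes (log2 0.85 over neurons and glia, SE 0.083). Cox7b, a small subunit of complex IV, stood at 150.5, 289, 251 and 271 CPM in glutamatergic neurons, at 153, 235, 212 and 237 in inhibitory neurons and at 83.7, 107, 142 and 116 in oligodendrocytes (log2 0.86, SE 0.076, adjusted p = 6.55e-15). Its lowest neuronal libraries, both of Ucn3-Cre replicate 1, overlapped with the higher glial ones, while within each library neurons were above oligodendrocytes. Ndufb2 was also higher (log2 0.79, SE 0.108), as were Cox5a (0.79), the core subunit of complex III Uqcrc1 (0.63), Atp5g1 (0.41) and Sdha (0.18). Ndufb2 overlaps Braf, and reads of overlapping genes may not be separable, since use of strand in counting is not given in the sources used here. The same caveat holds for other genes. Of the 83 with 1 gene model, 24 overlap another gene on the other strand and 3 on the same strand. Ndufaf2, Ndufs1, Ndufs3, Ndufs6, Ndufb11 and Atp5a1 are among the former and Ndufb9 among the latter.

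On the glial side were structural subunits of complexes I, III and IV and of the ATP synthase. Cox6b2, a complex IV subunit best known from testis, was the lowest in neurons (log2 -3.14, SE 0.295, adjusted p = 5.66e-14) and is described with its paralog below. Atp5e, the epsilon subunit of the ATP synthase, stood at 2.48, 17.9, 12.4 and 13.4 CPM in glutamatergic neurons and at 31.2, 42.8, 54.7 and 30.7 in oligodendrocytes, with no overlap (log2 -1.11, SE 0.173, adjusted p = 1.09e-07). Ndufa4, first described with complex I and now assigned to complex IV, stood at 33.4, 100.2, 118 and 110.0 CPM in glutamatergic neurons and at 154, 167, 291 and 181 in oligodendrocytes (log2 -0.89, SE 0.095). The accessory subunit Ndufb9 (log2 -0.86), Cox8a (-0.84), Cox6b1 (-0.73), Cox7a2 (-0.61), Atp5b (the catalytic beta subunit, -0.58), Uqcrfs1 (the Rieske protein of complex III, -0.47), Cox7a2l (-0.38) and Cycs (-0.30) were lower too. Ndufs1 (log2 0.02), Ndufv1 (-0.17), Atp5a1 (0.13) and Cox6a1 (0.03) did not pass the test.

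The 3 genes for subunit c of the ATP synthase, whose mature proteins are the same, went different ways. Atp5g1 was higher in neurons, with 91.7, 120, 125 and 118 CPM in glutamatergic neurons and 53.0, 63.3, 97.8 and 74.5 in oligodendrocytes (log2 0.41, adjusted p = 2.2e-05). Atp5g2 was lower, with 24.4, 25.5, 27.2 and 28.2 CPM against 47.8, 61.2, 64.4 and 54.5 (log2 -1.10, SE 0.121, adjusted p = 9.13e-12). Atp5g3 was lower as well (log2 -0.72), with 23.8, 44.6, 48.8 and 42.8 CPM against 71.4, 70.7, 118 and 92.2.

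**Figure D3:**
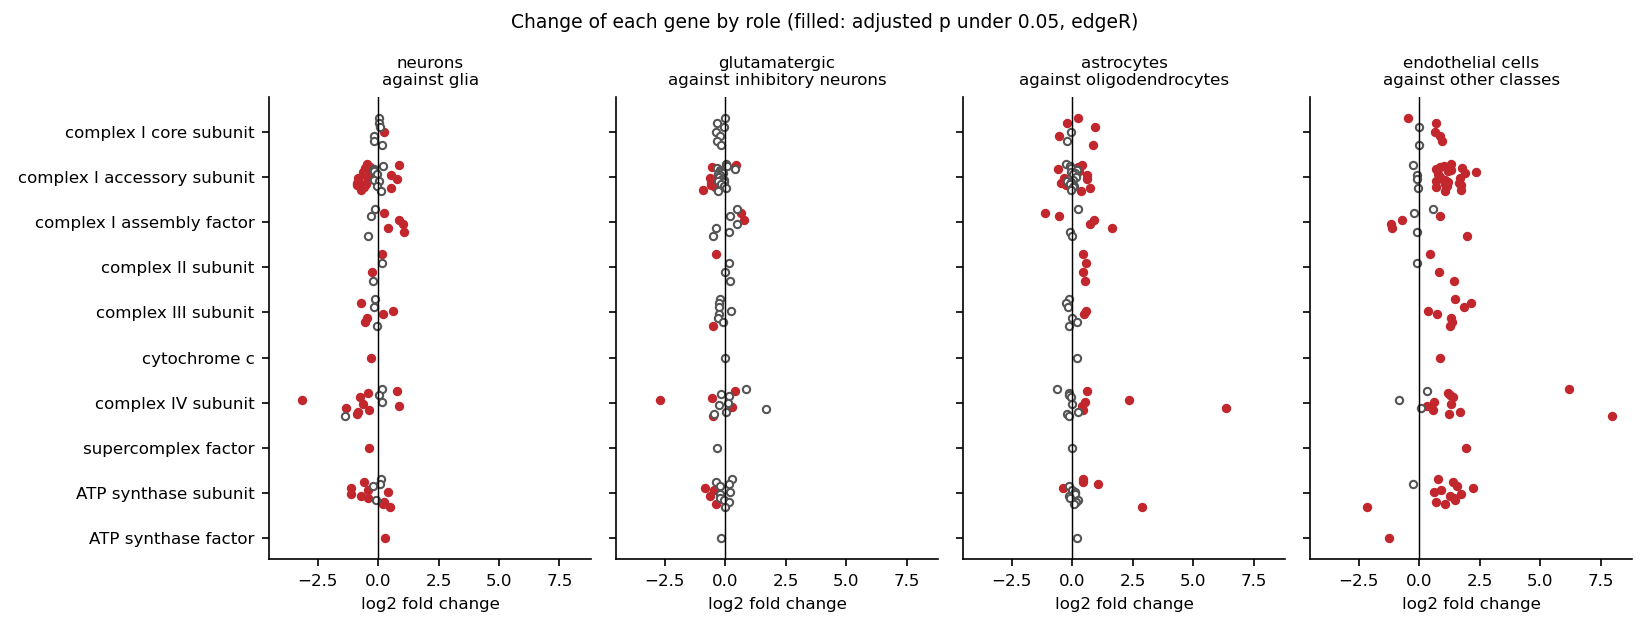
Log2 fold change (x axis) of each of the 84 genes, by role (rows), in 4 comparisons; filled points passed an adjusted p of 0.05 in edgeR, and Ndufa4l2 is left out of the second panel, where both classes had 3 counts or fewer. Assembly factors lie mostly right of 0 in the first 2 panels, and nearly all structural subunits lie right of 0 in the endothelial panel, where 64 genes were higher and 6 lower.

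Genes around the pathway were read from the same fit, in which 35.2% of all genes were higher and 35.5% lower in neurons. All 12 tested transcripts of mitochondrial DNA were lower in neurons (median log2 -3.14), and so were 49 of 79 ribosomal protein genes, with 9 higher. Of 16 enzymes of the citric acid cycle, which feeds electrons to complexes I and II, 9 were higher and 3 lower in neurons (median 0.36). Of 34 further assembly and accessory factors outside the symbol rule 17 were higher and 8 lower. Of 15 glycolytic enzymes 5 were higher and 8 lower, and of 14 mitochondrial regulators 6 were higher and 3 lower.

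Between the 2 neuronal types fewer genes were called. Glutamatergic neurons had 5 genes higher and 15 lower than inhibitory neurons, 20 of 84 where 24.8% of all genes were called (12.6% higher, 12.3% lower). The median log2 difference was -0.18 over 84 genes, -0.17 without Ndufa4l2, and -0.022 over all genes. It was nearer to 0 with values rounded up (-0.063, 15 genes called) and in thinned nuclei (-0.097), and nearly all deposited values lie just below whole numbers. With library totals the split was 3 higher and 20 lower. Assembly factors Ndufaf4 and Ndufaf2 were again on the higher side. Ndufaf4 stood at 110, 129, 121 and 153 CPM in glutamatergic neurons and at 49.4, 73.1, 95.9 and 95.8 in inhibitory neurons (log2 0.76, SE 0.133, adjusted p = 8e-06). Ndufaf2 stood at 119, 134, 129 and 121 against 80.0, 93.6, 79.9 and 85.1 CPM (log2 0.65, SE 0.116, adjusted p = 1.2e-05). The 2 classes did not overlap for either gene. Ndufa10 was higher by log2 0.46 (SE 0.118, adjusted p = 0.00211).

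On the lower side Atp5g3 stood at 23.8, 44.6, 48.8 and 42.8 CPM in glutamatergic and at 57.9, 75.8, 72.6 and 63.8 in inhibitory neurons (log2 -0.64, SE 0.186, adjusted p = 0.00722), with no overlap. Ndufs6 (log2 -0.91), Atp5e (-0.82), Ndufb11 (-0.63), Ndufb9 (-0.59), Cox6b1 (-0.56), Ndufa4 (-0.52) and Sdha (-0.36) were lower too. Several of these calls were lost when a library was left out, while the differences kept their direction (Ndufb11 at log2 -0.55 and -0.67, Ndufb9 at -0.48 and -0.46, Cox7b at 0.27 to 0.29). Without vGluT2-Cre replicate 2, 9 genes were called, and without vGluT2-Cre replicate 1 or Ucn3-Cre replicate 2, 13. Ndufs6 lost its call without Ucn3-Cre replicate 2 (adjusted p = 0.0504) or vGluT2-Cre replicate 2 (0.0606), Atp5e without either of these (0.169 and 0.0812) or vGluT2-Cre replicate 1 (0.07), and Ndufb11 without vGluT2-Cre replicate 1 (0.182) or replicate 2 (0.0847). Ndufb9 lost it without Ucn3-Cre replicate 1 (0.0859) or vGluT2-Cre replicate 1 (0.166). Cox5a (log2 0.41, adjusted p = 0.0113) lost it without Ucn3-Cre replicate 1 (0.0528) or vGluT2-Cre replicate 2 (0.0947). Cox7b (log2 0.29, adjusted p = 0.04) passed with all 4 libraries but not without vGluT2-Cre replicate 1 (0.124), Ucn3-Cre replicate 2 (0.114) or vGluT2-Cre replicate 2 (0.281), and in thinned nuclei it was lower (log2 -0.23, adjusted p = 0.665). At 1000 counts per nucleus 3 genes were called. Transcripts of mitochondrial DNA were lower in glutamatergic neurons for 11 of 12, and 29 of 79 ribosomal protein genes were lower and 0 higher.

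Sub-clusters of neurons differed in a few genes. The 6 glutamatergic sub-clusters, numbered G1 to G9 with gaps where mixed sub-clusters were set aside, carry no type names. Of the 41 genes deep enough for the test, 1 was called, where 22.1% of all genes were. This gene was Ndufaf2 (F test in edgeR, adjusted p = 6.46e-04). Its level was 184, 189, 163 and 146 CPM in G4 (93 nuclei led by Crhr1 and Maf) and 55.5, 83.3, 94.8 and 78.0 CPM in G9 (79 nuclei led by Cpne4 and Camk2a), with no overlap. The other 4 sub-clusters lay between, from 98.6 CPM in G6 to 132 CPM in G1. Without vGluT2-Cre replicate 1 the call was lost (adjusted p = 0.0705). Ndufaf4 (adjusted p = 0.0592) and Atp5d (0.0716) came next. The summed share in thinned nuclei ran from 0.478 ± 0.122% in G9 to 0.601 ± 0.0694% in G3 (45 nuclei led by Hpse2 and Lmx1a), an overlap within the spread.

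Among the 5 inhibitory sub-clusters, 24 of 66 tested genes were called, no larger a share than the 39.6% of all genes. Of the 24, 13 were highest in I7 (184 nuclei led by Dab1 and Kit), 10 in I6 (208 nuclei led by Slc6a5 and Pax2) and 1 in I2. Kit is also one of the markers used to name molecular layer interneurons, whose summed share in thinned nuclei was 0.674%. Whether I7 holds such nuclei was not tested. Cox7b again stood out (adjusted p = 8.03e-10). It stood at 153, 346, 314 and 273 CPM in I6 and at 214, 338, 235 and 353 in I7. In I1, I2 and I4 its means were 161.5 ± 42.0, 158 ± 27.3 and 171 ± 39.8 CPM, so that I6 and I7 fell within the range of these libraries in Ucn3-Cre replicate 1 only. Ndufa4 followed it with 192 ± 53.0 and 180 ± 28.5 CPM in I6 and I7 against 100.5 ± 22.7 to 120 ± 31.2 elsewhere (adjusted p = 4.87e-07). Ndufs1, the largest iron-sulphur subunit of complex I, was at 221, 187.5, 140 and 156.5 CPM in I6 and at 97.1 ± 14.1 in I4 (adjusted p = 9.32e-06). Ndufaf4 (adjusted p = 8.58e-06), Ndufs7 (8.04e-05) and Atp5a1 (1.87e-04) completed the 6 strongest. The summed share was 0.683 ± 0.0793% in I7, 0.623 ± 0.119% in I6 and 0.506 to 0.519% in the other 3. Without vGluT2-Cre replicate 2, 12 genes were called, and without vGluT2-Cre replicate 1, 14.

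Between astrocytes and oligodendrocytes, 29 of the 84 genes were higher in astrocytes and 9 lower, against 33.7% and 33.3% of all genes (67.0% in total). The share higher was thus near that of all genes, and the 29 include the Atp5o row. Each of the 38 had the same direction in all 4 libraries. The median log2 difference was 0.08 over the 84 genes and -0.036 over all genes. All 4 complex II genes were higher (median 0.50), as were 6 of 14 complex IV genes with none lower. Of 16 citric acid cycle enzymes 15 were higher and none lower, and of 15 glycolytic enzymes 10 were higher and none lower. Ribosomal protein genes went the other way, with 1 higher and 39 lower of 79.

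Sdha, the flavoprotein of complex II, stood at 139, 194, 158 and 177 CPM in astrocytes and at 87.0, 139, 118 and 122 in oligodendrocytes (log2 0.45). The gamma subunit gene Atp5c1 stood at 102, 111, 105.5 and 103 CPM against 46.1, 51.3, 46.6 and 47.7 (log2 1.08, SE 0.09, adjusted p = 5.58e-16). Ndufs3, a core subunit of complex I, stood at 127, 121, 96.6 and 95.6 CPM against 53.2, 55.8, 56.4 and 46.9 (log2 0.97, SE 0.09). Neither of the last 2 overlapped between the classes. Ndufaf6 was higher in astrocytes (log2 1.65, SE 0.151, adjusted p = 1.71e-14), with 38.8, 37.3, 38.1 and 32.7 CPM against 11.3, 11.4, 11.1 and 10.6. Ndufaf2 took the opposite direction (log2 -1.11, SE 0.09, adjusted p = 2.14e-16), with 48.5, 57.6, 66.7 and 59.1 CPM in astrocytes and 105, 120, 127 and 126 in oligodendrocytes. Assembly factors of complex I were thus found on both sides of this comparison. Ndufa3 (log2 -0.60), the core subunit Ndufs8 (-0.55), Ndufaf3 (-0.52), Ndufb7 (-0.45) and Atp5e (-0.39) were also lower in astrocytes. Atp5e lost its call without Ucn3-Cre replicate 2 (adjusted p = 0.0634) or vGluT2-Cre replicate 2 (0.165).

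The row named Atp5o needs care. It stood at 493, 338, 505 and 440 CPM in astrocytes and at 71.1, 41.6, 62.6 and 58.9 in oligodendrocytes (log2 2.87, SE 0.083). GENCODE vM21 (GRCm38) holds 2 gene models of that symbol, one at chr16:91925214-91931687 and one spanning chr16:91684398-91926982 across Donson, Cryzl1 and Itsn1. Over 9 classes the row's mean level followed that of Itsn1 with a Spearman correlation of 0.88, a description over classes that share libraries. Its values may therefore count reads of other genes, and they are not read as levels of the ATP synthase subunit.

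Against oligodendrocytes, oligodendrocyte precursors had 3 of the 84 genes called higher and 9 lower, where 50.2% of all genes were called (25.2% higher, 25.0% lower). By direction alone, called or not, 27 of the 84 were lower and 3 higher in all 4 libraries. The median log2 difference was -0.16 over the 84 genes against -0.063 over all. Scaled by library totals 4 were higher and 3 lower, with medians of -0.021 and 0.076. Ndufaf6 was higher in precursors, at 31.1, 26.1, 25.6 and 26.8 CPM against 11.3, 11.4, 11.1 and 10.6 (log2 1.12, SE 0.252, adjusted p = 1.51e-04). Ndufaf2 was lower, at 74.1, 79.1, 67.8 and 73.8 CPM against 105, 120, 127 and 126 (log2 -0.86, SE 0.137, adjusted p = 2.99e-07). Ndufs1 was lower as well, at 82.3, 99.6, 87.4 and 84.7 CPM against 124, 114, 114 and 92.3 (log2 -0.44). Cox7b (log2 -0.53), Atp5g3 (-0.45) and Sdha (-0.42) were lower too. Uqcr11 (log2 -0.67) lost its call without vGluT2-Cre replicate 2 (adjusted p = 0.0656), Ndufb11 (-0.56) without Ucn3-Cre replicate 2 (0.315), and Cox7a2l (-0.46) without any 1 of the 4 libraries.

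In endothelial cells 64 of the 84 genes were higher than the mean of the other classes and 6 were lower, 70 in all against 59.9% of all genes (35.2% higher, 24.7% lower). The median log2 difference was 0.93 over the 84 genes and 0.064 over all genes. All 8 complex III genes were higher (median 1.34), as were 22 of 26 accessory and 4 of 7 core subunits of complex I, 3 of 4 complex II genes, 11 of 14 complex IV genes and 12 of 14 ATP synthase genes. Of the 8 assembly factors 2 were higher and 3 lower (median -0.15). With each library left out in turn, 68 to 71 genes were called.

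Ndufa7, an accessory subunit, stood at 287, 229, 218 and 217 CPM in endothelial cells against 44.2, 50.6, 57.3 and 41.4 in oligodendrocytes and 24.0, 32.8, 29.1 and 29.3 in glutamatergic neurons (log2 2.37, SE 0.108, adjusted p = 9.9e-27). Atp5b stood at 489, 632, 448 and 464 CPM against 75.3, 121, 115 and 135 in glutamatergic neurons (log2 1.42). Uqcr11, a small subunit of complex III, stood at 138, 287, 109.7 and 105 CPM against 30.3, 41.5, 40.4 and 29.6 in oligodendrocytes (log2 2.13, SE 0.144). None of these overlapped with the class set beside it. Atp5e (log2 2.23), Ndufaf8 (1.97), Cox7a2l (1.92), Atp5g2 (1.72), Cox8a (1.70), Cox6b1 (1.40), Cox7a2 (1.33), Uqcrfs1 (1.32) and Ndufa4 (1.24) were higher in the same way. The lower genes were Atp5o (-2.15, with the doubt given above), Atp5s (-1.23), Ndufaf5 (-1.17), Ndufaf6 (-1.12), Ndufaf4 (-0.69) and Ndufs1 (-0.48). Ndufs1 was thus lower while most subunits of the same complex were higher, with 87.9, 104, 69.4 and 92.2 CPM in endothelial cells and 124, 114, 114 and 92.3 in oligodendrocytes.

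All 12 transcripts of mitochondrial DNA were higher in endothelial cells (median log2 3.15), as were 58 of 79 ribosomal protein genes (12 lower) and 10 of 15 glycolytic enzymes (0 lower). Citric acid cycle genes were split, with 4 higher and 3 lower of 16. Finer clustering divided the class into 3 clusters. Cluster 19 (284 nuclei led by Acta2, Myl9 and haemoglobin genes) had no endothelial marker among its top genes and was left unnamed by the marker rule. It had 1.66 ± 0.164% with 3.28% of its counts from mitochondrial DNA. Cluster 21 (373 nuclei, with Cldn5) had 0.957 ± 0.0523% and cluster 20 (80 nuclei, with Cldn5, Rgs5 and Vtn together) 0.969 ± 0.0909% in the 2 libraries with enough nuclei. In these libraries, both of Ucn3-Cre, cluster 20 had a median of 5159 and 5925 counts per nucleus, and cluster 21 2061 and 2040. Cldn5, Rgs5 and Vtn were each found in 100% of the nuclei of cluster 20. Whether doublets remained in cluster 20 was not tested. Single genes of the class were raised by cluster 19 too. Cox8a stood at 1058 ± 61.8 CPM in cluster 19, 442 ± 67.8 in cluster 21 and 403 ± 118 in the finer mural cluster. In the same order Atp5b stood at 685 ± 77.9, 412 ± 60.1 and 304 ± 61.3 CPM, and Ndufa4 at 583 ± 35.8, 438 ± 27.8 and 276 ± 76.8. At this finer clustering, which leaves that cluster out of the class, 61 genes were called in endothelial cells, 54 higher and 7 lower, with a median of 0.67 over the 84 genes and -0.001 over all.

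Ndufa4l2 and Cox4i2 were found almost only in the vascular classes. Ndufa4l2 is a paralog of Ndufa4 and Cox4i2 is the second isoform of complex IV subunit 4, and both are known to be induced by low oxygen in other tissues. Ndufa4l2 stood at 259, 489, 366 and 427 CPM in mural nuclei (385 ± 97.8, 120 counts) and at 260.1, 141, 244 and 243 in endothelial nuclei (222 ± 54.6, 566 counts). Glutamatergic neurons, molecular layer interneurons and precursors had 0 counts in all 4 libraries, and astrocytes and oligodendrocytes had at most 3.22 CPM in any library. Against the floor of 3 counts over the group, the pooled mural level was at least 604-fold higher than in glutamatergic neurons, at least 266-fold higher than in precursors and at least 83.8-fold higher than in molecular layer interneurons. In edgeR the gene was higher in both classes than in the mean of the others (adjusted p = 2.13e-22 in mural and 7.95e-29 in endothelial cells).

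Cox4i2 stood at 97.4, 307, 158 and 218 CPM in mural nuclei (195 ± 89.4, 60.9 counts) and at 78.7, 56.8, 89.3 and 88.4 in endothelial nuclei (78.3 ± 15.1). Microglia and molecular layer interneurons had 0 counts, and no library of astrocytes, oligodendrocytes, precursors or the nuclear neurons passed 3.00 CPM (adjusted p = 1.54e-18 in mural and 3.99e-22 in endothelial cells). Mural libraries lay above endothelial ones for Cox4i2, and for Ndufa4l2 they did so in 3 of 4 libraries. The endothelial class itself held mural markers. Rgs5 stood at 2437 ± 645 CPM there against 1040 ± 264 in mural nuclei, and Acta2 at 523 against 22.2 CPM. Vtn and Pdgfrb were at 1302 and 293 CPM in endothelial nuclei against 7047 and 2475 in mural nuclei, and Cldn5 at 3084 against 29.4.

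Among the finer clusters of the endothelial class Ndufa4l2 was lowest in cluster 21, at 93.1, 46.9, 61.8 and 47.3 CPM. It stood at 252, 209.7, 505 and 279 in cluster 19 and at 450 ± 64.1 (n = 2) in cluster 20, next to 387 ± 98.5 in the mural cluster. Cluster 20 held 301.7 of the 566 endothelial counts of Ndufa4l2. Cox4i2 followed the same order, with 20.0 ± 5.0 CPM in cluster 21, 98.9 ± 36.3 in cluster 19 and 149 ± 15.3 in cluster 20. Over clusters 21, 19 and 20 the 2 genes rose in the order of Vtn (141, 1551 and 3412 CPM) and Abcc9 (51.2, 178 and 842). They did not follow Rgs5 (2026, 1801 and 4605 CPM) or Acta2 (6.7, 1266 and 29.0). The mural cluster had more Vtn (7197 CPM) and less Rgs5 (982 CPM) than each of these clusters. The part of mural RNA in the endothelial values was not tested. Ndufa4l2 overlaps Shmt2 on the other strand, which stood at 8.09 CPM in mural and 11.4 CPM in endothelial nuclei.

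In mural cells 4 genes were higher and 1 lower of 84, where 20.3% of all genes were called (9.45% higher, 10.8% lower). The median was 0.16 over the 84 genes and -0.26 over all. With library totals 11 genes were higher and none lower, and the all-gene median was 0.031. Beyond the vascular pair, Cox6b2 (log2 1.90, adjusted p = 0.00909) rested on 9.7 counts and Cox8a (0.54, adjusted p = 0.0466) was called with all 4 libraries and with none of the 4 left out (adjusted p = 0.0506 to 0.215). Cox6b2 lost its call without Ucn3-Cre replicate 1 (0.0603) or replicate 2 (0.0553). Ndufaf7 was lower (log2 -1.20, adjusted p = 0.0328), at 31.1, 88.1, 37.0 and 9.6 CPM, a spread from below the level of every glial library to the range of glutamatergic neurons. It lost its call without Ucn3-Cre replicate 1 (0.0688) or replicate 2 (0.115) or vGluT2-Cre replicate 2 (0.287). Without Ucn3-Cre replicate 1, or without Ucn3-Cre replicate 2, 2 genes were called.

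Microglia had 1 gene higher and 20 lower than the mean of the other classes, 21 of 84 where 53.8% of all genes were called (25.5% higher, 28.3% lower). The median was -0.23 over the 84 genes and -0.14 over all. With library totals 3 were higher and 7 lower, with medians of -0.015 and 0.076. Assembly factors were prominent, 4 of 8 lower and none higher (median -0.59). Ndufaf4 stood at 46.1, 32.1, 47.2 and 28.6 CPM in microglia (log2 -1.06, adjusted p = 1.03e-04) against the 110 to 153 CPM of glutamatergic neurons. Cox6c (log2 -0.71), Cox5a (-0.71), Atp5g1 (-0.62) and Atp5a1 (-0.59) were lower. Sdhd (log2 -1.08) lost its call without Ucn3-Cre replicate 2 (adjusted p = 0.0867), Ndufaf8 (-1.27) without vGluT2-Cre replicate 1 (0.194) or replicate 2 (0.287), and Ndufaf5 (-0.92) without vGluT2-Cre replicate 1 (0.169) or Ucn3-Cre replicate 2 (0.126). The higher gene, Ndufa9 (log2 0.50, adjusted p = 0.0318), passed only with Ucn3-Cre replicate 1 left out or with all 4 libraries. Without vGluT2-Cre replicate 1, 13 genes were called, and without replicate 2 of that line, 12. Of 12 transcripts of mitochondrial DNA 7 were higher in microglia and none lower.

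Paralogs of complex IV subunits differed in the classes where they were found. Cox6b1 and Cox6b2 encode alternative forms of the subunit that faces the intermembrane space, and Cox7b and Cox7b2 alternative forms of a small transmembrane subunit. The RefSeq promoters of both pairs are shown because the paralogs differed in class, and those of Ndufaf4 and Atp5g2 because they moved in opposite directions between neurons and glia while both hold an NRF1 motif. NRF1 is a transcription factor known to act on respiratory genes. Each sequence is the 250 bases upstream of the RefSeq start, on the gene's own strand (GRCm38.p6), with motif matches in capitals. Cox6b1 lies at chr7:30626115-30626364 (minus strand), Cox6b2 at chr7:4753095-4753344 (minus), Cox7b at chrX:106015450-106015699 (plus), Cox7b2 at chr5:71548206-71548455 (minus), Ndufaf4 at chr4:24897833-24898082 (plus) and Atp5g2 at chr15:102671048-102671297 (minus).
Cox6b1: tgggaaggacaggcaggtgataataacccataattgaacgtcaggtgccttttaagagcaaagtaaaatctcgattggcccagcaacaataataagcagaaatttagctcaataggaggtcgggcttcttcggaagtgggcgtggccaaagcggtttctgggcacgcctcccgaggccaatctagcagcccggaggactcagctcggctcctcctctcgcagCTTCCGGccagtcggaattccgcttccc
Cox6b2: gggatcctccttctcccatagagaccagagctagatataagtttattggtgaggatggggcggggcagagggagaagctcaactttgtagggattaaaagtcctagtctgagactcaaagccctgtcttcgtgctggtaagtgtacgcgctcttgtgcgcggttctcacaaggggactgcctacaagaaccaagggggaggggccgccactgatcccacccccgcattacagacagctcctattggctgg
Cox7b: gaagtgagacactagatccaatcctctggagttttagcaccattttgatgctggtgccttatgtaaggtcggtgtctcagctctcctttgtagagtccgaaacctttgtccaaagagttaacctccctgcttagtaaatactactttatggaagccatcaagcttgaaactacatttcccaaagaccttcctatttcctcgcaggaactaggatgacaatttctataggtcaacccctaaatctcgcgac
Cox7b2: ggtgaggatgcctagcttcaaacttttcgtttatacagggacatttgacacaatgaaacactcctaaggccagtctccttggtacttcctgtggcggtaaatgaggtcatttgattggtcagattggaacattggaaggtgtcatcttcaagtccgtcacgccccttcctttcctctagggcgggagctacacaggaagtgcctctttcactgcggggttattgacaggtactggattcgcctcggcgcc
Ndufaf4: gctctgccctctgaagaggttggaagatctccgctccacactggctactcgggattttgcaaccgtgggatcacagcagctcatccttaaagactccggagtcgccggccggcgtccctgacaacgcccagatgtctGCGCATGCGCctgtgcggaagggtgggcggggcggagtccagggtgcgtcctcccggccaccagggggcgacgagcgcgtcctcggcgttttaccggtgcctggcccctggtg
Atp5g2: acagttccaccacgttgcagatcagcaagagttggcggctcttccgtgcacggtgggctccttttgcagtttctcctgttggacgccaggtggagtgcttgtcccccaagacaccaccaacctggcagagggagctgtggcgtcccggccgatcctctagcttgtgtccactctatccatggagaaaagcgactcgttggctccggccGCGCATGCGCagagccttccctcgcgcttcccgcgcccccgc

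Of these 6, Cox6b1 holds the ETS motif as its reverse complement 28 bases before the start, Ndufaf4 the NRF1 motif 113 bases before it and Atp5g2 the NRF1 motif 42 bases before it. The other 3 hold none of the motifs searched in the printed stretch. CpG dinucleotides number 14 in Cox6b1 and 8 in Cox6b2, 5 in Cox7b and 9 in Cox7b2, 23 in Ndufaf4 and 19 in Atp5g2. The motifs searched on both strands, from 250 bases before to 50 after the start, were the NRF1 palindrome that stands in capitals in Ndufaf4 and Atp5g2, CCGGAAG for ETS factors and AAGATGGC for YY1. RefSeq promoters were found for 69 of the 84 genes. NRF1 was found in 6 of them (8.7%) and in 2.0% of the promoters of 11544 listed genes, and YY1 in 10 (14.5%) and 4.7%. The ETS motif was found in 17 (24.6%) and 17.3%. The 6 with NRF1 were Atp5g2, Cox6a1, Ndufa11, Ndufaf4, Ndufaf5 and Uqcrc1.

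Cox6b2, whose promoter is printed above, was even across the libraries of astrocytes, at 39.1, 41.8, 41.3 and 39.4 CPM (40.4 ± 1.34), and stood at 5.11, 6.74, 9.07 and 8.55 in oligodendrocytes, with no overlap (log2 2.35, SE 0.166, adjusted p = 8.41e-19). Inhibitory neurons had 3.37, 4.86, 5.81 and 4.99 CPM. Glutamatergic neurons had 2.8 counts over all 4 libraries, and the level in inhibitory neurons was 7.61 times theirs (exact 95% interval 2.35 to 39.1, counting error only; edgeR adjusted p = 0.00116). Cox6b1 did not pass the test between these classes (adjusted p = 0.75), with 68.0, 83.9, 75.4 and 61.2 CPM in astrocytes and 62.8, 79.1, 76.6 and 62.7 in oligodendrocytes.

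Cox7b2 was a gene of astrocytes among these classes. It stood at 17.9, 44.9, 20.7 and 22.6 CPM there (26.5 ± 12.4, 364 counts) and at 0.26, 0.20, 0.18 and 0.35 in oligodendrocytes (6.4 counts), a pooled ratio of 110-fold (adjusted p = 2.22e-21). Precursors had 0, 7.07, 10.9 and 1.27 CPM from 10.5 counts, and a call against oligodendrocytes (adjusted p = 3.23e-05) rested on these few counts. Its lower level in neurons than in glia (log2 -1.32, adjusted p = 0.0276) was lost without Ucn3-Cre replicate 1 (0.0553) or replicate 2 (0.108). Cox7b, with 118, 164, 172 and 169 CPM in astrocytes, had no such restriction. The plot of paralog levels shows the astrocyte columns of Cox6b2 and Cox7b2 beside the vascular columns of Ndufa4l2 and Cox4i2, and Cox6b2 in mural nuclei as well.

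**Figure D4:**
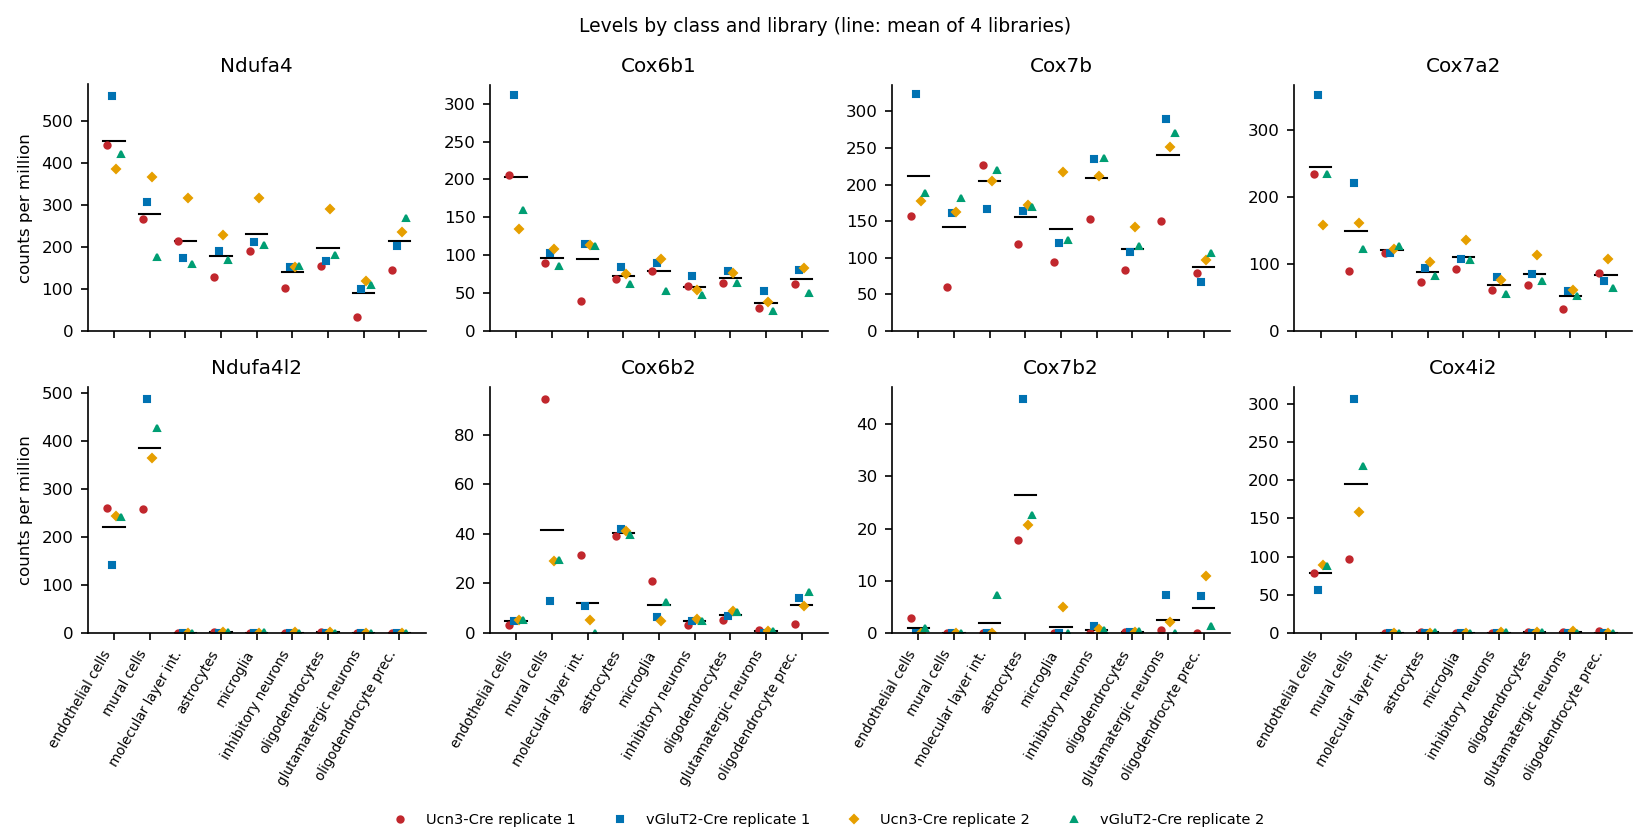
CPM (y axes) of 8 complex IV genes in 9 classes (x axes); points are libraries, lines means of 4. The lower row holds the paralogs of the first 3 genes of the upper row and Cox4i2, whose own paralog is not shown. Ndufa4l2 and Cox4i2 are at or near 0 outside the endothelial and mural classes, and Cox7b2 is highest in astrocytes (17.9 to 44.9).

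Longer genes among the 83 with 1 gene model tended to be higher in neurons and astrocytes. Their spans run from 1303 to 155909 bases, with a median of 7800, and they lie on 19 chromosomes. Across these genes the Spearman correlation of span with the log2 difference was 0.48 for neurons against glia, where it was 0.12 across 11114 genes of the fit. It was 0.46 (0.07) for astrocytes against oligodendrocytes and -0.49 (-0.25) for endothelial cells against the other classes. Genes are not independent replicates, and these values are descriptions. Of the 42 shorter genes 4 were higher and 21 lower in neurons, and of the 41 longer ones 15 were higher and 12 lower. In endothelial cells 39 of the shorter and 25 of the longer genes were higher. Intronic reads scale with span in nuclei, and whether the authors counted them is not given in the sources used here, so the part of span in the class differences was not tested.

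**Figure D5:**
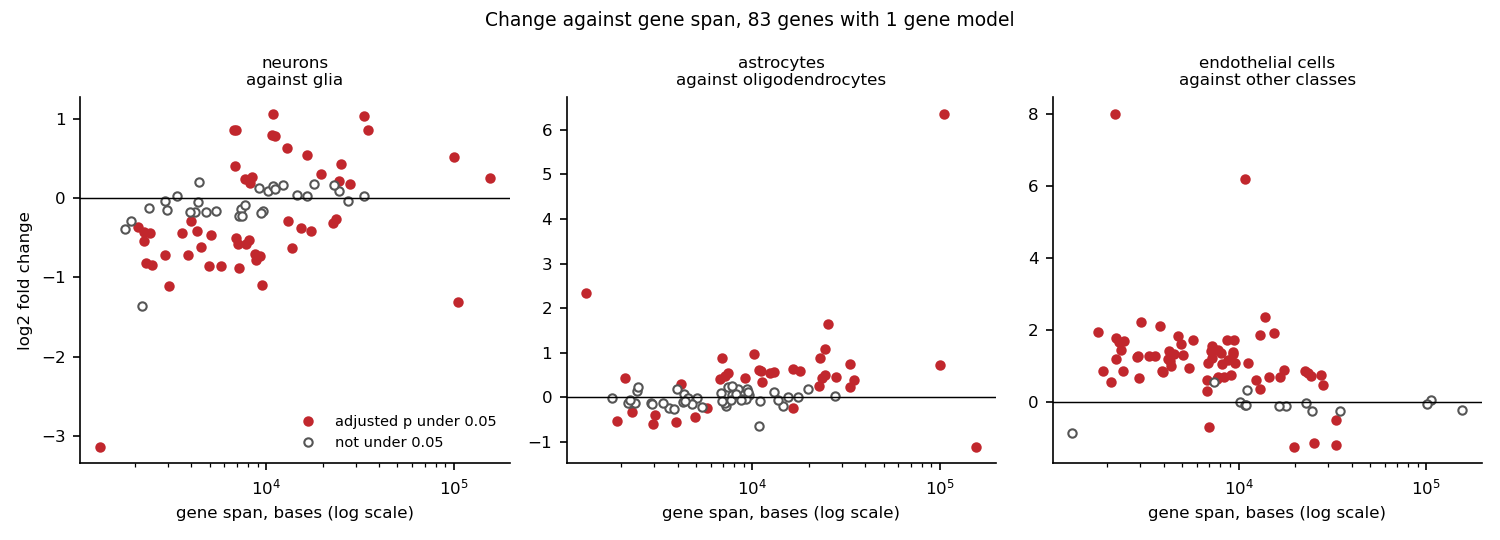
Log2 fold change (y axes) of the 83 genes with 1 gene model against the length of genome each spans (x axes, bases, log scale) in 3 comparisons; filled points passed an adjusted p of 0.05 in edgeR. Points rise with span in the first 2 panels (Spearman 0.48 and 0.46) and fall in the endothelial panel (-0.49).

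Neither the mouse line nor sex was associated with a called change in any of these genes. Ucn3-Cre against vGluT2-Cre, 2 libraries against 2, gave 0 of 84 genes over all nuclei, 0 of 79 in glutamatergic neurons and 0 of 83 in oligodendrocytes, and female against male gave 0 of 84. Of all genes 0.00% were called by edgeR in each of these. At an unadjusted p under 0.05 edgeR had 478, 280, 333 and 448 genes, of which 1, 3, 0 and 0 were of the 84, and DESeq2 called 241, 4, 194 and 201 genes, none of them among the 84. Cox5b was lower in both Ucn3-Cre libraries of glutamatergic neurons, at 16.7 and 24.6 CPM against 63.4 and 39.3 (log2 -1.20, SE 0.335, adjusted p = 1). Ndufa4l2 over all nuclei stood at 18.1, 4.01, 16.6 and 15.4 CPM, so that vGluT2-Cre replicate 1 alone was low. That library also had the fewest endothelial nuclei (72, against 174 to 263). Cox7c stood at 65.2, 38.9, 131 and 88.1 CPM over all nuclei (log2 0.64, SE 0.576). Atp5a1 was higher in both replicate 2 libraries in glutamatergic neurons, at 130, 132, 309 and 332 CPM, and in oligodendrocytes, at 111, 113, 209 and 191 CPM, but not in endothelial nuclei, at 316, 365, 303 and 347 CPM. The part of the shared tag in this was not tested. Missing the threshold with 2 libraries a side does not show that the lines or sexes were alike.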

How the data were processed

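Single-nucleus RNA-seq counts of 4 libraries were analysed, 2 per mouse line, each label naming 1 sex and age. The deposited values are estimated counts that are mostly not whole and lie just below whole numbers; how they were corrected, and whether introns or strand were used, is not given in the sources used here. Cell Ranger 3.1.0, Seurat 3.2 and the mm10 genome are named per the submitters' processing notes. Nothing says that replicates came from separate animals beyond these labels, so p-values measure the spread between these libraries.

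Values were summed per library and class as deposited, and the sums were then rounded to whole numbers. Nuclei were clustered with scanpy 1.11.5 (2000 variable genes, 30 components, resolution 1) without the 84 genes and the other listed pathway genes, and named from fixed markers. An automatic doublet threshold marked 37 nuclei (0.172%), so the highest scores, 0.8% per 1000 nuclei, were removed instead. The test was edgeR 4.0.16 (quasi-likelihood, TMM, library as a term, genes filtered by expression), with Benjamini-Hochberg adjustment over all genes and a threshold of 0.05. DESeq2 1.42.0 was an alternative. Thinning rounded each value and then drew 1000 counts from every nucleus. CPM are from unthinned sums unless thinned nuclei are named. Scripts were tested on simulated data, with the same spread set for all genes. A simulated log2 change of 0.5 was called in 8.89% of genes between the neuronal types. It was called in 3.19% for line over all nuclei and 1.19% for inhibitory sub-clusters. For a change of 1.0 the values were 68.2, 45.8 and 34.9%, so changes of these sizes can be missed. Named genes were the 6 largest called changes in each direction with 1 direction in at least 3 libraries, the 6 smallest p in sub-clusters, and preset core subunits and isoforms. Genes and lists were chosen with earlier results of these data known. Intervals cover counting error only. Fibroblasts and mixed neurons were left out of tests for few nuclei or mixed markers. Results of 1 of the 84 genes are not reported here by name.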

Additional observations from a re-analysis of the deposited data

Results flagged for a closer look

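Of 53 groups of 4 libraries examined, 3 had 1 library far from the other 3, where chance alone gives about 1 in 20 groups. All 3 concerned vGluT2-Cre replicate 1. Ndufa4l2 in endothelial nuclei was lowest there, at 141 CPM against 243 to 260.1 in the others. Uqcrfs1 in glutamatergic neurons was highest there, at 26.4 CPM against 19.1 to 19.9. Cox5a in glutamatergic neurons was highest there, at 98.3 CPM against 83.1 to 85.1.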

How the results depend on the processing

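The number of the 84 genes called in endothelial cells stayed between 60 and 71 under every alternative run, among them resolution 2 (61), which leaves 1 cluster of the class unnamed. Thinned to 1000 counts, which leaves 72 of the genes testable, 34 were called for neurons against glia, 3 for glutamatergic against inhibitory neurons, 23 for astrocytes against oligodendrocytes, 3 in mural cells and 9 in microglia; Cox7b between the neuronal types turned to -0.23 on the log2 scale, and the cause was not tested. With no replicate block (no library term), the counts were 5 for glutamatergic against inhibitory neurons, 25 for astrocytes, 7 for precursors, 13 for microglia and 8 for inhibitory sub-clusters. Library totals gave 7 for precursors, 11 for mural cells and 10 for microglia. DESeq2 gave 11 for mural cells, and keeping doublets 8. Glutamatergic sub-clusters gave 3 without a filter, 3 with values rounded up, 4 with doublets kept and 3 with mixed sub-clusters kept, an alternative chosen after seeing the data. Resolution 2 gave 15 for inhibitory sub-clusters. Leaving out 1 library gave 9 to 16 between neuronal types, 7 to 13 for precursors, 2 to 5 for mural cells, 12 to 21 for microglia, 0 to 2 for glutamatergic and 12 to 21 for inhibitory sub-clusters. The endothelial share was 1.113% with all counts and 1.109% at 2000 counts, and 0.962% without the unnamed cluster, an alternative chosen after seeing the data; at 2000 counts mural cells had too few nuclei in 3 libraries for a value. Leaving out Atp5o, also chosen after seeing the data, moved the share of no class by as much as its SD. For line and sex, a replicate block called 0 of the genes; same-numbered libraries correlated at 0.136 in their deviations, and a tag in nucleus names that both replicates 2 carry was not tested. Few counts limit Cox6b2 and Cox7b2 outside astrocytes.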
